A study of Mus musculus with 6 samples.

Results

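The TNF superfamily genes of liver endothelium were examined here in mice on a high-iron and on a control-iron diet. They were taken from the deposited expression table as every row whose symbol begins with Tnfsf (ligands) or Tnfrsf (receptors) followed by a digit. This gave 32 of 39179 rows, 11 of ligands and 21 of receptors, and 31 distinct symbols because Tnfrsf22 is listed on 2 rows. Family genes with other symbols (Tnf, Fas, Cd40, Ltbr and the like) lie outside that rule and are described separately. A row was counted as expressed when at least 3 of the 6 libraries reached a CPM of 1 (reads of a gene scaled to library size). By that criterion 16 rows were expressed, 3 ligands and 13 receptors, and 16 were not.

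Both groups were wild-type 129S6/SvEvTac male mice that received purified AIN-93G diet from 3 weeks of age for 4 weeks and were sampled at 7 weeks. The diet of the high_iron group held 10000 ppm carbonyl iron, and that of the control_iron group held 37 ppm iron as ferric citrate, so the groups differed in the form of the iron as well as in its amount. Flow cytometry took from the liver the cells positive for the endothelial proteins CD31 and CD146 and negative for CD45, CD64, MHC class II and lineage markers, and RNA was sequenced from 3 libraries per group. The labels do not say whether a library came from 1 mouse or from a pool, so p-values measure the spread between these libraries. Reads in genes numbered 19265165, 17295321 and 12963510 in high_iron replicates 1 to 3, and 18566380, 21663543 and 18008668 in control_iron replicates 1 to 3. At that depth 3 reads correspond to 0.139 to 0.231 CPM, a floor that covers counting error only. The cells carried the transcripts of liver endothelium: 13 sinusoidal markers summed to 33616 to 35230 CPM in high_iron and 35007 to 38920 CPM in control_iron libraries, and 0 of the 13 passed the test (1 with an unadjusted p under 0.05, 0 called by edgeR and 1 by DESeq2). Markers of other liver cells were present too, and are given beside the genes they moved with.

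Ligands of the TNF superfamily are trimeric proteins, made at the membrane and often shed, that draw receptors together on a target cell. Receptors with a death domain recruit FADD and caspase 8 or TRADD and RIPK1 and can start cell death. The other signalling receptors bind TRAF proteins and act mainly through NF-kB and MAP kinases, and decoy receptors bind ligand without carrying a signal. In the liver, TNF, FAS ligand and TRAIL are known for their part in hepatocyte death and inflammation. Sinusoidal endothelial cells line the blood space between the hepatocytes and are exposed to such ligands in blood.

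Tnfsf10, which encodes the ligand TRAIL, fell on the high-iron diet and was the only superfamily gene to pass the test. It had 95.1, 46.5 and 61.1 CPM in high_iron replicates 1 to 3, against 161, 136 and 174 CPM in control_iron replicates 1 to 3. All high_iron libraries lay below all control_iron libraries, and high_iron replicate 1 lay nearest to them. The means were 67.6 ± 24.9 CPM in high_iron and 157 ± 19.2 CPM in control_iron (SD, n = 3 each), which rest on 789 to 1852 reads per high_iron library and 2934 to 3102 reads per control_iron library. On the log2(CPM + 1) scale it fell by 1.26 ± 0.23 (log2 fold change -1.26 ± SE, 95% interval -1.78 to -0.74), which is to say it fell by 58.2%, with an adjusted p of 0.0404 from limma with Benjamini-Hochberg adjustment over all 12980 genes tested. In a bulk library, fewer cells that make a transcript and less of it per cell cannot be told apart. The call lay near the threshold: edgeR on the recovered reads gave -1.23 with an adjusted p of 0.0569, and DESeq2 gave -1.22 with an adjusted p of 1.3e-04. With no filter on low values, and so 23979 genes tested, the adjusted p was 0.117. With 1 library left out, the call held without high_iron replicate 1 (adjusted p = 0.00888) and control_iron replicate 1 (0.0476), and was lost without high_iron replicate 2 (0.127), high_iron replicate 3 (0.1996), control_iron replicate 2 (0.0769) and control_iron replicate 3 (0.123). In these 6 fits its log2 fold change ran from -1.53 to -1.03.

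Tnfsf10 (ENSMUSG00000039304) is a gene of chromosome 3 (plus strand, 27317028 to 27342427, GRCm38, which is mm10), and GENCODE M21 gives it 6 merged exons. No other annotated gene overlaps its exons, and no transcript of another gene matched at 95% identity over 50% of its length. Its upstream sequence is shown because it was the only superfamily gene called. RefSeq (GRCm38.p6) gives a promoter window of 250 bases before the start, of which 49 lie inside the GENCODE gene, and the other 201 bases, on the plus strand at chr3:27316827-27317027, read 5′ to 3′ as follows, with a tandem repeat in capitals.
Tnfsf10: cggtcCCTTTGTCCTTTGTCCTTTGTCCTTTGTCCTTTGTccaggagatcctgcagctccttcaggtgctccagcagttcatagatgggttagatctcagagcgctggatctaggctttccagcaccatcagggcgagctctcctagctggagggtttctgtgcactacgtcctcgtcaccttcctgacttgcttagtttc
The capitals mark 5 copies of CCTTTGT, from 245 to 211 bases before the RefSeq start. Of 32851 RefSeq promoter windows of the same length, 1 (0.00304%), this one, holds at least 3 such copies in a row on either strand. The unit was taken from this window, so the count does not say how rare tandem repeats in general are among promoters. The 250-base window was also searched on both strands for 6 motifs: the antioxidant response element TGACNNNGC, found in 10.2% of all windows, the AP-1 motif TGANTCA (6.75%), the forkhead motif GTAAACA (3.17%), the interferon-sensitive motif GAAANNGAA (7.13%), the NF-kB motif GGANTTTCC (1.07%) and the GC box GGGCGG (32.7%). None of the 6 had a match in the window, which says only that these letters are not in it.

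**Figure D1:**
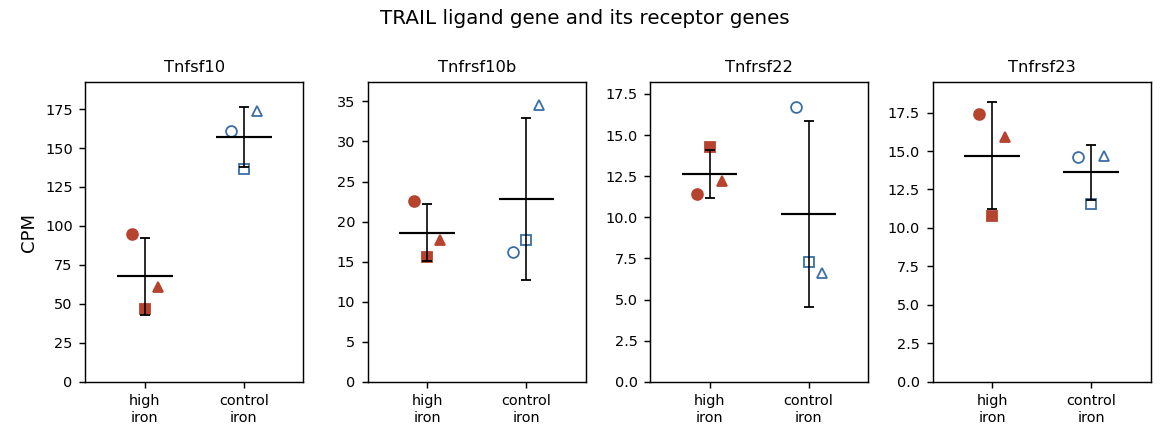
CPM of the TRAIL gene and of its receptor genes in each library, high_iron left of control_iron (circle, square and triangle for replicates 1 to 3, line for the mean, bar for SD, n = 3 each). The high_iron libraries lie at 46.5 to 95.1 CPM for Tnfsf10, below the control_iron libraries at 136 to 174 CPM, and the groups overlap for Tnfrsf10b, Tnfrsf22 and Tnfrsf23.

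Of the 16 expressed superfamily genes, 0 rose and 1 fell, where 1.02% of all genes tested were called, 0.832% higher and 0.193% lower in high_iron. In all 9 had a positive and 7 a negative log2 fold change, with a median of 0.08 against -0.003 over all genes tested. An unadjusted p under 0.05 was found for 3 of the 16 (Tnfsf10, Tnfrsf1b and Tnfrsf21), and for 12.1% of all genes. All high_iron libraries lay above all control_iron libraries for 2 genes (Tnfrsf1b and Tnfrsf26), as for 9.46% of all genes, and below them for 1 (Tnfsf10), as for 8.44%. EdgeR called 0 of the 16, against 0.863% of all genes (0.716% higher and 0.146% lower in high_iron). DESeq2 called 0 higher and 1 lower, Tnfsf10, against 3.27% of all genes (2.53% higher and 0.740% lower).

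**Figure D2:**
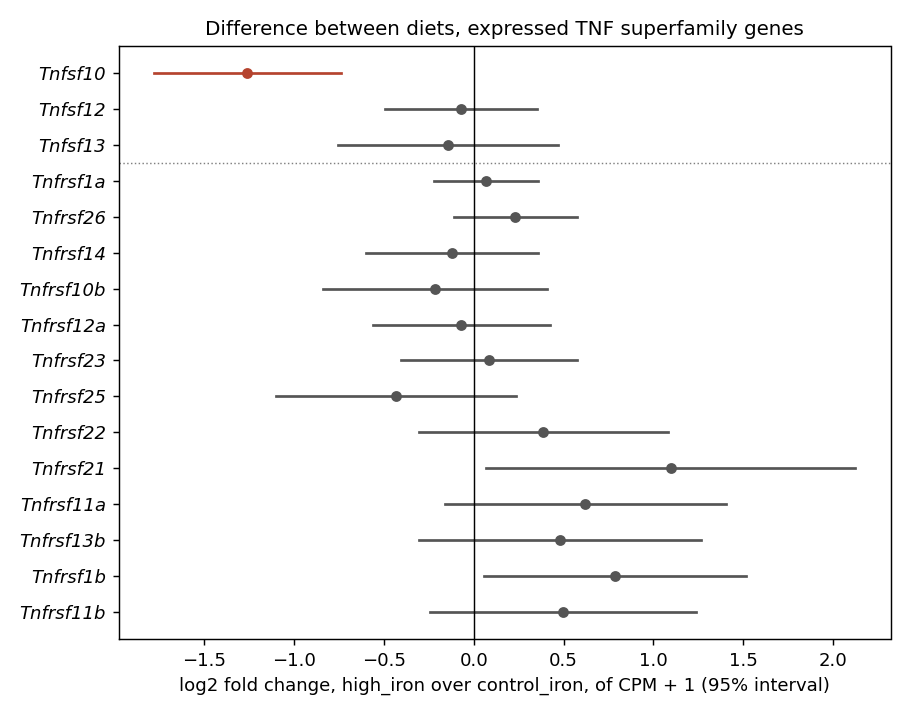
Log2 fold change of CPM + 1, high_iron over control_iron, with its 95% interval from limma, for the 3 expressed ligand genes (above the dotted line) and the 13 expressed receptor genes, ordered by mean RPKM within each kind. Tnfsf10 (red, -1.26) is the only one with an adjusted p under 0.05, and the intervals of Tnfrsf21 and Tnfrsf1b lie just above 0 before adjustment.

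Among the other ligands, Tnfsf12, which encodes TWEAK, had 33.2, 31.8 and 42.4 CPM in high_iron replicates 1 to 3, against 29.8, 39.2 and 44.5 CPM in control_iron replicates 1 to 3. The groups overlapped, with a log2 fold change of -0.07 ± 0.19 (± SE, limma adjusted p = 0.901, 95% interval -0.49 to 0.35). Tnfsf13, which encodes APRIL, a survival factor of plasma cells, was close to the limit of 1 CPM at 1.28, 1.12 and 0.538 CPM in high_iron and 1.56, 1.25 and 0.740 CPM in control_iron libraries. Its groups overlapped as well (log2 fold change -0.14, adjusted p = 0.851). The pair lie side by side on the minus strand of chromosome 11, Tnfsf13 from 69682846 to 69685784 and Tnfsf12 from 69686250 to 69695849. A read-through gene, Tnfsfm13, shares 48.3% of the exon length of Tnfsf12 and 60.0% of that of Tnfsf13, and is listed at 0 CPM in every library, so the values of the pair depend on how shared reads were assigned. An antisense gene overlaps 13.5% of the exon length of Tnfsf13.

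On RPKM, which divides CPM by gene length and so allows levels of different genes to be compared, the order of the ligands varied between libraries. Tnfsf10 stood at 17.3, 8.47 and 11.1 RPKM and Tnfsf12 at 10.7, 10.2 and 13.6 RPKM in high_iron replicates 1 to 3. In control_iron replicates 1 to 3, Tnfsf10 stood at 29.4, 24.8 and 31.7 RPKM and Tnfsf12 at 9.57, 12.6 and 14.3 RPKM. Tnfsf10 was thus above Tnfsf12 in every control_iron library and in high_iron replicate 1, and below it in high_iron replicates 2 and 3. Of the summed RPKM of all listed ligands, Tnfsf10 made up 58.6, 43.2 and 44.1% in high_iron and 73.2, 64.6 and 68.0% in control_iron replicates 1 to 3. These levels rest on the deposited gene lengths, 5489 bases for Tnfsf10 and 3115 for Tnfsf12. GENCODE M21 gives merged exon lengths of 5266 bases for Tnfsf10 and 1515 for Tnfsf12. The order of Tnfsf10 and Tnfsf12 within a library, and the shares, therefore depend on which lengths are used.

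**Figure D3:**
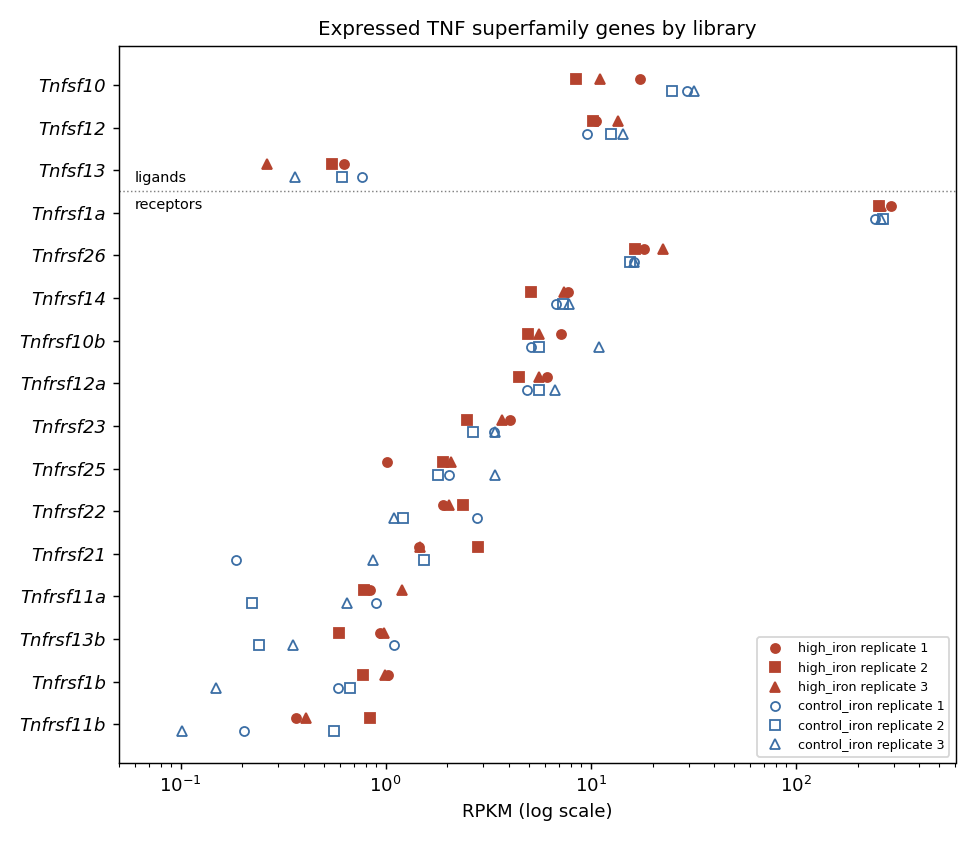
RPKM (log scale) of the 16 expressed superfamily genes in each library, with high_iron (filled) drawn above control_iron (open) in each row. Tnfrsf1a lies at 243 to 290 RPKM, above every other gene shown, and Tnfsf10 is the only ligand whose groups do not overlap.

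Tnfrsf1a, which encodes TNFR1, the death-domain receptor through which TNF acts on most cells, was by far the most abundant of the superfamily. It had 290, 256 and 261 RPKM in high_iron replicates 1 to 3, against 243, 267 and 259 RPKM in control_iron replicates 1 to 3, and supplied 82.6 to 85.9% of the summed RPKM of all listed receptors in every library. Its groups overlapped, with 697 ± 48.4 CPM in high_iron and 665 ± 31.2 CPM in control_iron (SD, n = 3 each). The log2 fold change of 0.07 ± 0.13 (± SE, limma adjusted p = 0.851) had a 95% interval of -0.22 to 0.36. Its exons (chromosome 6, 125349362 to 125362484, plus strand) overlap no other annotated gene. The next receptor in the order of levels was Tnfrsf26, with 16.4 to 22.6 RPKM in high_iron and 15.6 to 16.3 RPKM in control_iron libraries.

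The other receptor genes with a death domain were Tnfrsf10b, Tnfrsf21 and Tnfrsf25, and none of them passed the test. Tnfrsf10b, which encodes the mouse death receptor for TRAIL, had 22.5, 15.6 and 17.8 CPM in high_iron and 16.2, 17.7 and 34.5 CPM in control_iron replicates 1 to 3, so the groups overlapped and control_iron replicate 3 stood apart. Its log2 fold change was -0.22 (adjusted p = 0.767), and 0.11 without that replicate. Tnfrsf25, which encodes DR3, the receptor for TL1A, had 2.21, 4.13 and 4.54 CPM in high_iron and 4.42, 3.90 and 7.40 CPM in control_iron libraries (log2 fold change -0.43, adjusted p = 0.584). The gene for its ligand, Tnfsf15, was at most 0.0519 CPM in any library, a level of 1 read.

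Tnfrsf21, which encodes DR6, had the largest positive log2 fold change of the expressed superfamily genes. It stood at 5.29, 10.2 and 5.30 CPM in high_iron replicates 1 to 3, against 0.675, 5.57 and 3.13 CPM in control_iron replicates 1 to 3. The groups overlapped: control_iron replicate 2 lay above high_iron replicates 1 and 3. The log2 fold change of 1.10 ± 0.46 (± SE) had an unadjusted p of 0.0392 and an adjusted p of 0.384 by limma, and was 0.55 without control_iron replicate 1, the library with the lowest value. Within each diet the highest library was replicate 2, which was also the library with the highest level of stellate cell and fibroblast markers: 11 of them summed to 242, 1079 and 655 CPM in high_iron and to 152, 1147 and 584 CPM in control_iron replicates 1 to 3. Of 10 tested markers of that list 0 were called (0 with an unadjusted p under 0.05, 0 by edgeR and 0 by DESeq2), and 7 erythroid markers (1071, 4100 and 723 CPM in high_iron and 1007, 3356 and 1274 CPM in control_iron replicates 1 to 3) and 11 hepatocyte markers (531, 963 and 753 CPM in high_iron and 224, 859 and 514 CPM in control_iron replicates 1 to 3) were also highest in replicate 2 within each diet. The part of any of these cells in the values of Tnfrsf21 was not tested. Under the other settings shown in the plot of fold changes by setting, the log2 fold change of Tnfsf10 was negative and that of Tnfrsf21 positive throughout.

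**Figure D4:**
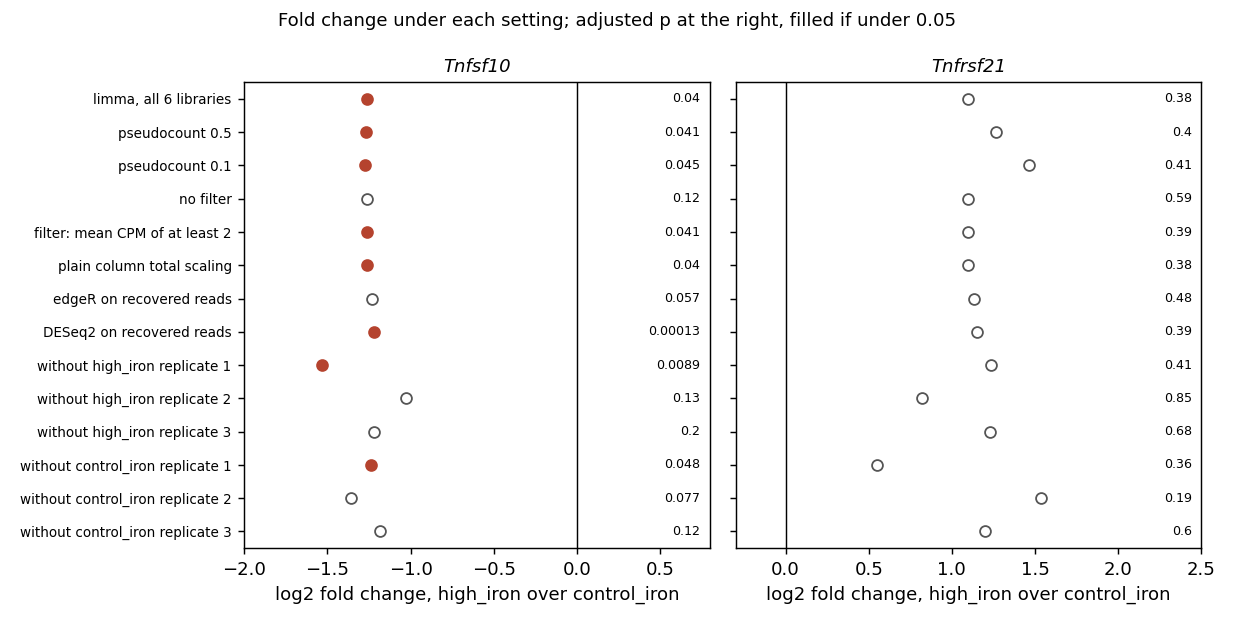
Log2 fold change, high_iron over control_iron, of Tnfsf10 and Tnfrsf21 under each setting drawn (rows), with the adjusted p at the right and filled points for an adjusted p under 0.05. The limma fit with the replicate number as a block is not drawn (adjusted p = 3.9e-04 for Tnfsf10 and 0.0362 for Tnfrsf21). Tnfsf10 stays negative in every row, between -1.53 and -1.03, and Tnfrsf21 stays positive in every row drawn.

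The genes of the decoy receptors were expressed at low to moderate levels and none of the 3 passed the test by limma (0 with an unadjusted p under 0.05, 0 called by edgeR and 0 by DESeq2). Tnfrsf22 and Tnfrsf23 encode mouse decoy receptors for TRAIL. Tnfrsf22 had 11.4, 14.3 and 12.2 CPM in high_iron and 16.7, 7.29 and 6.61 CPM in control_iron replicates 1 to 3 (log2 fold change 0.39, adjusted p = 0.631), and control_iron replicate 1 was the highest library of all. Tnfrsf23 had 17.4, 10.8 and 15.9 CPM in high_iron and 14.6, 11.6 and 14.7 CPM in control_iron replicates 1 to 3 (log2 fold change 0.08, adjusted p = 0.894). Replicate 2 was the lowest library of Tnfrsf23 within each diet. Tnfrsf11b, which encodes osteoprotegerin, the soluble decoy for RANKL and TRAIL, had 1.03, 2.36 and 1.15 CPM in high_iron and 0.571, 1.58 and 0.285 CPM in control_iron replicates 1 to 3. Its groups overlapped (log2 fold change 0.50, adjusted p = 0.570), and replicate 2 was again the highest library within each diet, as for the stellate cell and fibroblast, erythroid and hepatocyte markers, whose part was not tested.

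Tnfrsf22 and Tnfrsf23 lie with Tnfrsf26 in 1 cluster on the minus strand of chromosome 7, Tnfrsf26 from 143607659 to 143628722, Tnfrsf22 from 143634806 to 143649661 and Tnfrsf23 from 143665809 to 143685872. Transcripts of Tnfrsf22 and Tnfrsf23 match each other along 2172 bases at 91.2% identity. No matched stretch of either reached 95% identity with the other, and how reads from the shared stretches were assigned is not stated in the labels. Another antisense gene overlaps 3.33% of the exon length of Tnfrsf26 and 4.14% of that of Tnfrsf23. Tnfrsf26 had 54.1, 48.8 and 67.1 CPM in high_iron replicates 1 to 3, against 48.4, 46.3 and 48.4 CPM in control_iron replicates 1 to 3. The groups did not overlap, by a margin of under 1 CPM, and the difference did not pass the test (log2 fold change 0.23 ± 0.15, ± SE, limma adjusted p = 0.565, 95% interval -0.11 to 0.57). The 3 genes thus shared a position and not a common order of libraries: the highest was high_iron replicate 3 for Tnfrsf26, control_iron replicate 1 for Tnfrsf22 and high_iron replicate 1 for Tnfrsf23.

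The remaining 5 expressed receptor genes belong to the group that signals through TRAF proteins, and none of them passed the test. Tnfrsf1b, which encodes TNFR2, the second TNF receptor, had 3.90, 2.95 and 3.77 CPM in high_iron and 2.23, 2.55 and 0.570 CPM in control_iron replicates 1 to 3. The groups did not overlap, and the log2 fold change of 0.78 ± 0.33 (± SE) had an unadjusted p of 0.0378 and an adjusted p of 0.381 by limma. Tnfrsf11a, which encodes RANK, the receptor for RANKL, had 4.21, 3.95 and 6.00 CPM in high_iron and 4.52, 1.11 and 3.25 CPM in control_iron replicates 1 to 3, with overlap (log2 fold change 0.62, adjusted p = 0.508). TNFR2 and RANK are also known from macrophages and their precursors, and markers of such cells were higher in high_iron libraries. The 16 listed macrophage markers summed to 536, 268 and 367 CPM in high_iron and to 79.4, 183 and 96.6 CPM in control_iron replicates 1 to 3. Positive log2 fold changes were found for all 15 that were tested. All 15 had an unadjusted p under 0.05 by limma, against 12.1% of all genes. Of the 15, 3 were called higher by limma, against 0.832% of all genes (0 to 6 with 1 library left out, 2 by edgeR and 11 by DESeq2). No listed macrophage marker was at 0 in all libraries, and Clec4f, a lectin of Kupffer cells, had 94.7 ± 22.0 CPM in high_iron and 21.6 ± 15.9 CPM in control_iron (SD, n = 3 each). C1qb, the next most abundant of the list, had 48.2 ± 21.1 CPM in high_iron and 27.8 ± 6.23 CPM in control_iron. Its groups overlapped (log2 fold change 0.70, limma adjusted p = 0.384). Summed MHC class II and dendritic cell markers and summed B cell and plasma cell markers were also higher in every high_iron library. The part of any of these cells in the values of Tnfrsf1b and Tnfrsf11a was not tested.

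**Figure D5:**
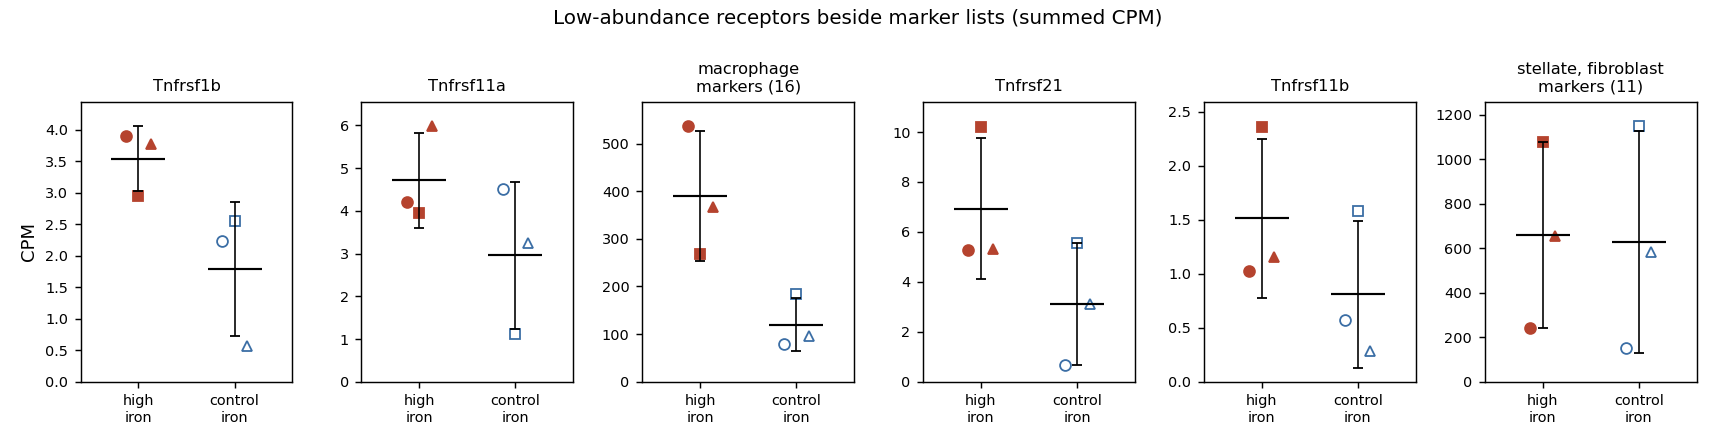
CPM of 4 receptor genes of low abundance in each library beside the summed CPM of 16 macrophage markers and of 11 stellate cell and fibroblast markers, high_iron left of control_iron (circle, square and triangle for replicates 1 to 3, line for the mean, bar for SD, n = 3 each). Tnfrsf1b is higher in every high_iron library than in any control_iron library, as are 9.46% of all genes tested and 12 of the 15 tested macrophage markers. The summed macrophage markers are higher in every high_iron library too. The same holds for summed MHC class II and dendritic cell markers and summed B cell and plasma cell markers, which are not drawn. Replicate 2 (square) is highest within each diet for Tnfrsf21, Tnfrsf11b and the stellate cell and fibroblast markers. Erythroid and hepatocyte markers, not drawn, are also highest in replicate 2 within each diet.

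Tnfrsf13b, which encodes TACI, a receptor of B cells for BAFF and APRIL, had 2.72, 1.71 and 2.84 CPM in high_iron and 3.17, 0.697 and 1.03 CPM in control_iron replicates 1 to 3. The groups overlapped (log2 fold change 0.48, adjusted p = 0.601), and control_iron replicate 1 was the highest library. The other receptors of that ligand pair, Tnfrsf13c (BAFF receptor) and Tnfrsf17 (BCMA), were not expressed by the criterion, with 0.975, 0.413 and 0.231 CPM in high_iron and 0, 0 and 0.171 CPM in control_iron replicates 1 to 3 for Tnfrsf13c. The 11 B cell and plasma cell markers found in the table summed to 24.3, 13.0 and 20.6 CPM in high_iron and 6.70, 6.08 and 11.96 CPM in control_iron libraries, and 1 of the 5 tested rose (Ighm, 0 with any 1 library left out). Of all genes, 0.832% were called higher by limma. Of the 5, 3 had an unadjusted p under 0.05 by limma, 0 were called by edgeR and 2 by DESeq2, against 12.1%, 0.863% and 3.27% of all genes. Ms4a1, among these 3, had 1.44, 1.30 and 2.00 CPM in high_iron and 0.364, 0.279 and 0.854 CPM in control_iron replicates 1 to 3. It was thus tested only through the group where it was higher. The part of B cells and plasma cells in the values of Tnfrsf13b and Tnfrsf13c was not tested.

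Tnfrsf12a and Tnfrsf14 showed small differences. Tnfrsf12a, which encodes FN14, the receptor for TWEAK, had 5.85, 4.30 and 5.38 CPM in high_iron and 4.68, 5.34 and 6.44 CPM in control_iron replicates 1 to 3 (log2 fold change -0.07, adjusted p = 0.917, 95% interval -0.56 to 0.42). Tnfrsf14, which encodes HVEM, the receptor for LIGHT, had 9.34, 6.19 and 8.99 CPM in high_iron and 8.16, 8.92 and 9.51 CPM in control_iron replicates 1 to 3 (log2 fold change -0.12, adjusted p = 0.840, 95% interval -0.60 to 0.36). The groups overlapped for both genes, and replicate 2 was the lowest high_iron library of each.

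Ligand and receptor of the same pair were set side by side for TRAIL and TWEAK, whose genes were expressed on both sides. Tnfsf13 (APRIL) and Tnfrsf13b (TACI) were also both expressed, with a CPM of at least 1 in 4 and 5 libraries. No ratio was taken for that pair. The RPKM ratio of Tnfsf10 to Tnfrsf10b was 2.43, 1.72 and 1.98 in high_iron and 5.73, 4.43 and 2.90 in control_iron replicates 1 to 3, so it was lower in every high_iron library. That of Tnfsf12 to Tnfrsf12a was 1.75, 2.28 and 2.43 in high_iron and 1.96, 2.26 and 2.13 in control_iron replicates 1 to 3, with overlap. The size of each ratio rests on the deposited gene lengths, though its comparison between libraries does not. Deposited lengths were 3115 bases for Tnfsf12, 959 for Tnfrsf12a and 3163 for Tnfrsf10b, against GENCODE M21 merged exon lengths of 1515, 1932 and 5451 bases. Tnfsf12 also shares exon length with Tnfsfm13, as given above. For the expressed receptors Tnfrsf25 (TL1A), Tnfrsf11a (RANKL) and Tnfrsf14 (LIGHT), the ligand genes Tnfsf15, Tnfsf11 and Tnfsf14 were not expressed by the criterion in these cells.

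The 16 rows under the criterion had at most 72 reads over all 6 libraries together, against at least 121 for each expressed row. The ligand genes among them were Tnfsf4 (OX40L), Tnfsf8 (CD30L), Tnfsf9 (4-1BBL), Tnfsf11 (RANKL), Tnfsf13b (BAFF), Tnfsf14 (LIGHT), Tnfsf15 (TL1A) and Tnfsf18 (GITRL), most of them known from immune cells. Tnfsf9 reached 0.418 CPM in control_iron replicate 2, Tnfsf14 0.513 and Tnfsf18 0.462 CPM in high_iron replicate 1, and the other 5 stayed under 0.3 CPM. The receptor rows were Tnfrsf4 (OX40), Tnfrsf8 (CD30), Tnfrsf9 (4-1BB), Tnfrsf13c, Tnfrsf17, Tnfrsf18 (GITR), Tnfrsf19 (TROY) and the second row of Tnfrsf22. Tnfrsf4 was the most abundant of these by reads, with 0.770, 0.648 and 0.615 CPM in high_iron and 0.416, 0.789 and 0.740 CPM in control_iron replicates 1 to 3. Tnfrsf18 reached 0.987 CPM in control_iron replicate 1 and at most 0.384 CPM elsewhere, and an antisense gene overlaps 27.2% of its exon length, which an unstranded library cannot separate. Rows with 0 reads in every library were Tnfsf4, Tnfrsf8 and the second row of Tnfrsf22, which means under about 0.139 to 0.231 CPM per library. T and NK cell markers, of cells that carry several of these receptors, summed to 4.11, 2.42 and 2.31 CPM in high_iron and 2.03, 0.882 and 2.45 CPM in control_iron libraries, and 0 of 12 reached the criterion.

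Of 15 superfamily genes with other symbols 7 were tested and none passed by limma (3 with an unadjusted p under 0.05, against 12.1% of all genes, 0 called by edgeR and 0 by DESeq2). Fas and Ltbr were the most abundant of them. Fas, the death receptor for FAS ligand, had 197, 172 and 190 CPM in high_iron and 204, 250 and 173 CPM in control_iron replicates 1 to 3, with overlap (log2 fold change -0.15). Ltbr, the lymphotoxin beta receptor, had 238, 263 and 264 CPM in high_iron and 248, 267 and 234 CPM in control_iron replicates 1 to 3, also with overlap (0.03). The 3 with an unadjusted p under 0.05 were Eda2r, a receptor for ectodysplasin (log2 fold change 1.04, adjusted p = 0.188), Cd27, a receptor of lymphocytes (-0.53, adjusted p = 0.384), and Relt (-0.66, adjusted p = 0.364). Relt had 0.770, 0.531 and 0.769 CPM in high_iron and 1.61, 1.11 and 2.45 CPM in control_iron replicates 1 to 3. It was thus tested only through the group where it was higher, and its p carries little weight. The gene of TNF itself was under the criterion, with 0.411, 0.472 and 0.384 CPM in high_iron and 0.260, 0.371 and 1.08 CPM in control_iron replicates 1 to 3. The genes of lymphotoxin alpha, CD40 ligand, CD70 and the ectodysplasin receptor EDAR had 0 reads in every library.

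All 29 listed adaptors, kinases and ubiquitin ligases of receptor signalling were expressed, and none passed by limma (5 with an unadjusted p under 0.05, 0 called by edgeR and 2 by DESeq2), with a median log2 fold change of 0.13. Of all genes tested, 12.1% had an unadjusted p under 0.05 by limma, and edgeR called 0.863% and DESeq2 3.27%. Mlkl, the pore-forming effector of necroptosis, had 48.8, 50.5 and 48.7 CPM in high_iron and 35.8, 31.7 and 24.4 CPM in control_iron replicates 1 to 3 (log2 fold change 0.69 ± 0.17, ± SE, adjusted p = 0.103). It passed without control_iron replicate 1. Bid, which links death receptors to mitochondria, had 14.99, 10.97 and 13.4 CPM in high_iron and 5.66, 7.94 and 6.21 CPM in control_iron replicates 1 to 3 (0.89 ± 0.21, adjusted p = 0.0945). Neither gene overlapped between diets, with high_iron higher, as for 9.46% of all genes, and both were called by DESeq2. Xiap, a caspase inhibitor, had 283, 210 and 223 CPM in high_iron and 296, 309 and 429 CPM in control_iron replicates 1 to 3 (-0.52, adjusted p = 0.272). It also had no overlap, with high_iron lower, as for 8.44% of all genes. The log2 fold change was -0.58 for Traf1 (adjusted p = 0.378), -0.11 for Casp8, the caspase of the death receptors (0.725), and 0.42 for Map3k14, the kinase NIK of the alternative NF-kB route (0.369).

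Of 13 NF-kB subunits and their inhibitors and kinases none passed by limma, edgeR or DESeq2 (0 with an unadjusted p under 0.05), with a median log2 fold change of 0.03. Rela, the main activating subunit, had 191, 184 and 191 CPM in high_iron and 237, 211 and 183 CPM in control_iron replicates 1 to 3, with overlap. Nfkbia, an inhibitor that NF-kB itself induces, had 350.0, 360.4 and 352 CPM in high_iron and 342, 362 and 437 CPM in control_iron replicates 1 to 3 (log2 fold change -0.09, adjusted p = 0.791). Over the list, log2 fold changes ran from -0.54 (Nfkbiz) to 0.22 (Ikbkg).

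Among 24 tested genes known to respond to TNF or NF-kB, 1 rose and 0 fell by limma (5 with an unadjusted p under 0.05, 1 called by edgeR and 3 by DESeq2), with a median log2 fold change of 0.11. The gene that rose was Csf1, the growth factor of macrophages, with 353, 314 and 376 CPM in high_iron and 160, 144 and 217 CPM in control_iron replicates 1 to 3, and with no overlap (log2 fold change 1.01 ± 0.17, ± SE, adjusted p = 0.0288). It passed by edgeR and DESeq2, and with 1 library left out it passed without control_iron replicates 1 and 3 and missed in the other 4 fits (adjusted p up to 0.181), as it did with no filter on low values (0.0924). Log2 fold changes were 1.10 for Tnfaip2 (adjusted p = 0.0599), 0.91 for Ier3 (0.112) and 0.78 for Icam1, a leukocyte adhesion molecule (0.299), none of which passed by limma with all 6 libraries. Icam1 had 94.7, 79.5 and 91.3 CPM in high_iron and 85.4, 44.3 and 34.9 CPM in control_iron replicates 1 to 3, with overlap. It passed by limma without control_iron replicate 1 (adjusted p = 0.00920). DESeq2 called Tnfaip2 (adjusted p = 9.4e-04) and Ier3 (0.00699) beside Csf1. The most abundant of the list on RPKM after Nfkbia, Tnfaip1, had 775, 675 and 794 CPM in high_iron and 953, 747 and 922 CPM in control_iron replicates 1 to 3, with overlap. Summed macrophage markers did not overlap between diets either, nor did summed MHC class II and dendritic cell or B cell and plasma cell markers. The part of any of these cells in the values of Csf1, Mlkl, Bid and Tnfaip2 was not tested.

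The lower level of Tnfsf10 was set beside the endothelial markers of the same libraries. The 10 general endothelial markers summed to 9706, 9896 and 10203 CPM in high_iron and 10661, 10214 and 10786 CPM in control_iron replicates 1 to 3, and 0 of them were called by limma (1 with an unadjusted p under 0.05, 0 by edgeR and 0 by DESeq2). Pecam1 (CD31) had 549 to 635 CPM in high_iron and 634 to 737 CPM in control_iron libraries, and Ptprc (CD45) had 4.13 to 7.60 CPM in high_iron and 0.604 to 2.68 CPM in control_iron libraries (adjusted p = 0.152). Mcam (CD146) had 7.60, 7.49 and 11.5 CPM in high_iron and 27.5, 10.9 and 16.7 CPM in control_iron replicates 1 to 3, with overlap (adjusted p = 0.281). MHC class II and dendritic cell markers summed to 626, 210 and 309 CPM in high_iron and 84.2, 119 and 118 CPM in control_iron libraries. Of 6 tested genes 3 were called higher by limma (0 to 4 with 1 library left out, 3 by edgeR and 4 by DESeq2), against 0.832% of all genes. An unadjusted p under 0.05 was found for 4 of the 6, against 12.1% of all genes. Cd74, among those called, had 246 ± 149 CPM in high_iron and 48.9 ± 16.7 CPM in control_iron (SD). The dendritic cell marker Clec9a did not move with it: 41.2 ± 18.1 CPM in high_iron and 39.7 ± 2.52 CPM in control_iron (log2 fold change -0.03, limma adjusted p = 0.977). Of all genes, edgeR called 0.863% and DESeq2 3.27%. Of the hepatocyte markers, whose sums are given above, 0 of 11 were called by limma (3 with an unadjusted p under 0.05, 0 by edgeR and 2 by DESeq2). Neutrophil and monocyte, platelet, erythroid and cholangiocyte markers had 0 of 2, 0 of 4, 0 of 6 and 0 of 1 tested genes called by limma, 3 of them with an unadjusted p under 0.05 (1 platelet and 2 erythroid genes). EdgeR called 0 of these and DESeq2 1. The part of any of these cells in the level of Tnfsf10 was not tested.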

How the data were processed

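RNA came from sorted liver endothelial cells; a low-input cDNA kit that does not mark strand was used, per the labels' protocols. STAR, HTSeq, edgeR and mm10 are named in the submitters' processing notes; their versions and roles and the annotation release were not given in the sources used here. One of the tables that the authors deposited holds a normalized signal named CPM, in which the values are gene reads over a scaled library size, so column totals run from 964515 to 1025619. All 114253 positive values (100%) come out as whole reads within 0.001 read, which allowed the reads to be recovered. The authors also deposited RPKM values, which are the CPM values per kilobase of gene length to within 8.0e-11.

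Groups were compared two-sided on log2(CPM + 1) with limma 3.58.1 (R 4.3.3), with group as the only term and an intensity trend. The fit took the 12980 genes that reached a CPM of 1 in 3 or more libraries. P-values were adjusted by the Benjamini-Hochberg method over all of them, with a threshold of 0.05. Folds on this scale understate the change of low genes. edgeR 4.0.16 (quasi-likelihood) and DESeq2 1.42.0 were run on the recovered reads as alternatives, where edgeR called 112 and DESeq2 424 genes against 133 by limma. The procedure was tested on simulated data. Within a group, counts of library pairs differed far more than sampling allows (chi-square over its degrees of freedom 18.2 to 89.3), so none was treated as a duplicate.

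The members and the 18 gene lists (6 of TNF signalling, 12 of cell type markers) were chosen with earlier results of these data known, so list counts are descriptions. Of 215 listed symbols 214 were found, 3 of them by Ensembl identifier. The naming rule took all members and, from each marker list, the 2 most abundant genes. From each signalling list it took the genes called, at most the 4 with the smallest p, and the 2 most abundant on RPKM. Mlkl, Bid, Map3k14, Eda2r, Cd27, Relt, Tnfaip2, Ier3, Icam1 and Ms4a1 lie outside that rule. They were named for an unadjusted limma p under 0.05, without being called by limma in the fit of all 6 libraries. Nfkbiz and Ikbkg were named as the ends of a range. Tnf, Traf1 and 4 family genes at 0 reads were named after their values were seen. GENCODE M21 (GRCm38, the same assembly as mm10) gave positions and exon overlaps. Near-identical transcripts were searched with BLAST+ 2.17.0, and promoter sequence comes from RefSeq (GRCm38.p6).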

Additional observations from a re-analysis of the deposited data

How the results depend on the processing

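Alternatives were pseudocounts of 0.5 and 0.1, no filter, a filter on a mean CPM of at least 2, plain column totals, edgeR, DESeq2, the replicate number as a block, and each library left out in turn. The count of genes called, 133, was 34 with no filter, 424 with DESeq2, 402 with the replicate block, and between 27 and 183 with 1 library left out. Superfamily genes that fell numbered 0 with no filter and with edgeR, and 0 to 1 with 1 library left out. With the block, Tnfsf10 had an adjusted p of 3.9e-04 by limma. Superfamily genes that rose numbered 0 to 0 with 1 library left out and 1 with the block (Tnfrsf21, adjusted p = 0.0362). Same-numbered libraries deviated together with correlations of 0.128, 0.320 and 0.0625, and the other pairs with -0.388 to 0.198. The value for replicates 2 (0.320) was the highest of all pairs. However, high_iron replicate 1 correlated best with control_iron replicate 3 (0.198), and high_iron replicate 3 with control_iron replicate 2 (0.131). The numbers were not taken to pair the libraries, and a shared effect of the replicate number was not tested. For the 16 expressed superfamily genes, 123 of 126 values under the other alternatives kept direction and side of the threshold. With 1 library left out 9 of 96 changed sign, those of Tnfrsf10b (-0.41 to 0.11), Tnfrsf14 (-0.22 to 0.0464), Tnfsf13 (-0.30 to 0.0286), Tnfrsf23 (-0.0424 to 0.28), Tnfsf12 (-0.23 to 0.0542) and Tnfrsf12a (-0.16 to 0.0373). Among other genes, sign changes came for Clec9a (0.0446 by edgeR and 0.0571 by DESeq2), Hba-a1 (0.0168 and 0.0244) and Dcn (-0.24 and -0.23). With 1 library left out they came for Ltbr (-0.0136 to 0.0808), Nfkbia (-0.17 to 0.0090), Ehd3 (-0.11 to 0.16), Eng (-0.10 to 0.0101), Clec9a (-0.36 to 0.15), S100a9 (-0.0804 to 0.66), Hbb-bs (-0.93 to 0.31), Hba-a1 (-0.91 to 0.33), Apoa1 (-0.0436 to 0.96), Rgs5 (-0.50 to 0.93) and Dcn (-0.80 to 0.86). The cause was not tested. Depth limits the 16 rows under the criterion, most of which rest on a few reads.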
